A study of Arabidopsis thaliana with 16 samples.

Results

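In unheated Arabidopsis thaliana seedlings that make HSFA2 but lack 4 HSFA1 factors, 97 of 22746 array features (0.426%) stood above every other unheated line. With heat in wild type, these 97 rose by less than 0.5 (log2) or not at all. The members were chosen from measured values. The mean of the A2QK arrays at 22 °C had to exceed the means of QK, hsfa2 and WT at 22 °C by at least 0.8 each (log2). The heat mean minus the 22 °C mean had to be under 0.5 in WT and under 1.8 in A2QK, so lower values after heat were allowed. Control features were left out, as were organelle-encoded genes where the annotation named the gene. AT5G47600 was left out by name, and its margin of 0.67 would not have reached the limit. The annotation gives 56 members a single gene, 55 of them protein coding and 1 a pseudogene. A further 2 match several genes and 39 are not listed (40.2%, against 38.4% of all features), so these are described without gene names.

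The values come from 16 arrays of whole seedlings aged 7 days, 2 for each of 8 groups. A2QK is a single line, A2QK-10, in which the constitutive CaMV 35S promoter drives HSFA2 in QK plants. QK is a knockout of HSFA1a, HSFA1b, HSFA1d and HSFA1e in a mixture of the Col-0 and Ws backgrounds, which A2QK shares. The hsfa2 line lacks HSFA2 in Col-0, and WT is Col-0. Each line was sampled after 1 h in a 37 °C water bath, called heat here, and at 22 °C without it. Since A2QK is 1 line, an effect of HSFA2 and one of where the transgene sits or of which Ws segments the line carries cannot be told apart. The array features for HSFA1a, HSFA1b, HSFA1d, HSFA1e and HSFA2 are not named by the annotation, so the level of the transgene is not analysed here.

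Heat shock factors are transcription factors that bind heat shock elements and switch on chaperone genes when proteins begin to unfold. HSFA1 proteins are present before heat and start the response, and one of the genes they switch on is HSFA2, which prolongs it. HSFA2 driven by a constitutive promoter is made without heat.

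Across features, Pearson's r between the 2 arrays of a group was 0.959 to 0.995, and array medians lay between 4.87 and 5.20 (log2). The median feature was at 5.20 in A2QK at 22 °C, against 5.18 in QK, 5.05 in hsfa2 and 5.12 in WT. After heat the medians were 5.00 in A2QK, 5.10 in QK, 4.87 in hsfa2 and 4.98 in WT. Once arrays were shifted to equal medians, 50 features met the rule, all of them among the 97. Leaving out any 1 of the 12 arrays in the rule gave 83 to 124 members. In RNA from whole seedlings, fewer cells of a type and less RNA per cell cannot be told apart. Of 8 root markers 4 were measured, and their mean level at 22 °C was 5.96 to 6.26 in A2QK, 5.82 to 6.73 in QK, 5.05 to 5.32 in hsfa2 and 6.02 to 6.15 in WT. None of the 12 seed, 12 leaf photosynthesis and 6 senescence markers is named by the annotation, so those markers are not analysed here.

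The margin over the next highest line ran from 0.80 to 3.22 with a median of 0.95, and it was at least 1.0 in 43 members, at least 1.5 in 12 and at least 2.0 in 5. The median member level at 22 °C was 6.14 in A2QK, against 4.48 in QK, 4.63 in hsfa2 and 4.35 in WT. Both A2QK arrays lay above all 6 others at 22 °C in 92 members, an ordering that 8.93% of all features showed and that the rule itself favours. The named member among the 5 with overlap was AT1G58025, a bromodomain protein, with 5.55 and 5.30 in A2QK, 5.94 and 2.72 in QK, 3.19 and 3.06 in hsfa2, and 3.33 and 2.95 in WT. One QK array alone reached the A2QK level there.

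The members nearest the limit show how the rule divides a continuous range. Inside it stood CML42 (AT4G20780), a calmodulin-like calcium sensor, and AT2G43200, a methyltransferase family member, each with a margin of 0.80. TAC1 (AT3G09290), a zinc finger protein, and HOS3-1 (AT4G36830), of the fatty acid elongase family, followed at 0.81. Just outside were AT5G10770 at 0.79, AT5G58750 at 0.79 and AT3G05180 at 0.79. Of 163 features past the margins, 66 were set aside by a heat limit, 64 of them because heat raised WT by at least 0.5.

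**Figure D1:**
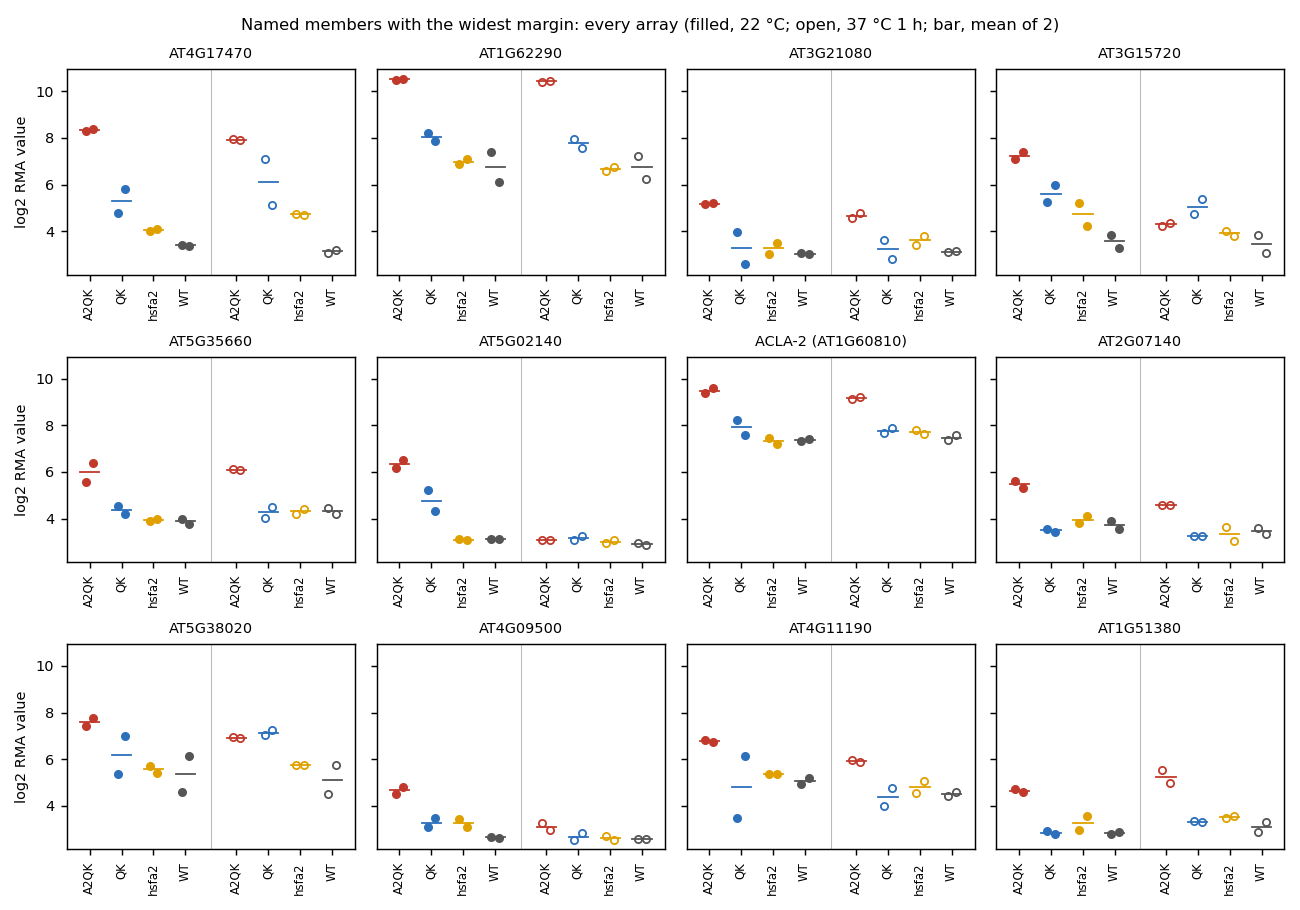
Log2 RMA value of each array for the 12 named members with the widest margin; filled points are 22 °C, open points 1 h at 37 °C, bars the mean of 2 arrays, and lines run A2QK, QK, hsfa2, WT. The A2QK points at 22 °C lie above the other 22 °C points in each panel, which follows from the choice of members. After heat the A2QK points lie at the level of the other lines in AT5G02140 and below QK in AT3G15720 and AT5G38020.

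Proteins of the secretory path and the cell wall made up 12 of the 56 named members. These groups by function were drawn up after the members were known and are a description. AT1G62290, an aspartic protease gene at chromosome 1, 23009885 to 23013601 (TAIR10.1), had the highest A2QK level at 22 °C of all members. It had 10.47 and 10.54 in A2QK at 22 °C, 8.23 and 7.85 in QK, 6.87 and 7.10 in hsfa2, and 7.42 and 6.13 in WT. The margin over the next line was 2.47. AT3G15720, of the pectin-cleaving polygalacturonase family, had 7.10 and 7.39 in A2QK, 5.24 and 6.00 in QK, 5.23 and 4.25 in hsfa2, and 3.85 and 3.31 in WT. AT5G02140, a thaumatin-like protein gene, had 6.19 and 6.53 in A2QK, 5.23 and 4.32 in QK, 3.14 and 3.07 in hsfa2, and 3.12 and 3.14 in WT. For both, QK lay between A2QK and WT. AT5G35660, which codes for a glycine-rich protein, had 5.59 and 6.37 in A2QK, 4.53 and 4.21 in QK, 3.89 and 3.99 in hsfa2, and 3.99 and 3.79 in WT.

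Some secretory members came in pairs from a family. The dirigent proteins, which steer the coupling of lignan and lignin precursors, were AT4G11190 with a margin of 1.38 and AT4G38700 with 1.14. AT4G11190 had 6.82 and 6.73 in A2QK, 3.50 and 6.13 in QK, 5.39 and 5.39 in hsfa2, and 4.95 and 5.19 in WT, so its QK arrays differed from each other by more than its margin. Extracellular GDSL-type lipases gave AT1G75900, with 8.74 and 8.77 in A2QK, 5.62 and 5.46 in QK, 7.52 and 7.28 in hsfa2, and 5.39 and 5.67 in WT, and its neighbour AT1G75880. In AT1G75900 the hsfa2 arrays lay well above the QK and WT arrays. The sugar-binding lectins were AT1G53070, with a margin of 1.02, and the jacalin-related JAL22 (AT2G39310), with 0.94. JAL22 was bright throughout, with 9.64 and 9.71 in A2QK, 7.14 and 7.94 in QK, 8.77 and 8.71 in hsfa2, and 8.29 and 7.56 in WT.

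Transferases and other enzymes of specialised metabolism made up 9 named members, with margins of 0.80 to 1.42. AT5G38020, of the carboxyl methyltransferase family that makes methyl esters, had 7.43 and 7.78 in A2QK, 5.36 and 7.01 in QK, 5.70 and 5.43 in hsfa2, and 4.61 and 6.15 in WT. The UDP-glycosyltransferases, which attach sugars to small molecules, were AT4G09500 and UGT71C2 (AT2G29740). AT4G09500 had 4.53 and 4.80 in A2QK, 3.09 and 3.47 in QK, 3.46 and 3.10 in hsfa2, and 2.67 and 2.65 in WT. UGT71C2 had 6.05 and 5.70 in A2QK, 4.78 and 5.01 in QK, 3.69 and 3.90 in hsfa2, and 5.26 and 4.64 in WT. In UGT71C2, alone among these 3, the hsfa2 arrays were the lowest. AT5G40830 and AT2G43200 are further methyltransferase family members, with margins of 0.98 and 0.80.

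Genes of primary metabolism, lipids, mitochondria and transport made up 10 named members. AT4G17470, a palmitoyl-protein thioesterase-like gene at chromosome 4, 9742350 to 9744867 (TAIR10.1), had the widest margin of any named member, 3.05. It had 8.28 and 8.39 in A2QK, 4.77 and 5.80 in QK, 4.03 and 4.09 in hsfa2, and 3.42 and 3.38 in WT. ACLA-2 (AT1G60810), a subunit of the ATP-citrate lyase that supplies acetyl-CoA outside the mitochondrion, had 9.37 and 9.58 in A2QK, 8.24 and 7.59 in QK, 7.47 and 7.20 in hsfa2, and 7.31 and 7.41 in WT. ATJ1 (AT1G28210), a mitochondrial DnaJ co-chaperone, belongs to a co-chaperone family that also has heat shock members. It had 6.59 and 6.72 in A2QK, 5.62 and 5.82 in QK, 5.28 and 5.49 in hsfa2, and 5.21 and 5.30 in WT.

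AT1G73600, of the phosphoethanolamine methyltransferase family that builds phosphatidylcholine, had the lowest QK level relative to WT of all members. It had 8.82 and 8.82 in A2QK, 3.86 and 4.25 in QK, 8.19 and 7.83 in hsfa2, and 5.94 and 6.87 in WT. QK was at least 0.8 under WT at 22 °C in 2 of the 97 members. The hsfa2 line was at least 0.8 under WT in 3. How many of all features lay this far under WT was not counted.

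The remaining named members split into 6 for DNA, RNA and translation, 10 for transcription and signalling and 9 with no role given. AT1G51380, a DEAD-box RNA helicase, had 4.73 and 4.58 in A2QK, 2.94 and 2.78 in QK, 2.97 and 3.58 in hsfa2, and 2.78 and 2.90 in WT. TAC1, whose product raises telomerase activity in Arabidopsis when activated, had 4.20 and 4.03 in A2QK, 3.47 and 3.14 in QK, 3.41 and 3.21 in hsfa2, and 3.16 and 3.19 in WT. AT3G21080 had 5.16 and 5.20 in A2QK, 3.98 and 2.61 in QK, 3.04 and 3.50 in hsfa2, and 3.07 and 3.02 in WT. AT2G07140, with 5.63 and 5.31 in A2QK, 3.55 and 3.45 in QK, 3.82 and 4.10 in hsfa2, and 3.90 and 3.57 in WT, completes the 12 named members with the widest margins. The A2QK arrays of these 4 genes lay above every other array at 22 °C. Among the unlisted members, 1 feature had the widest margin of all 97, with 7.03 and 7.67 in A2QK, 3.79 and 3.53 in QK, 4.12 and 4.14 in hsfa2, and 3.38 and 3.31 in WT.

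The line next below A2QK at 22 °C was hsfa2 in 53 members, QK in 35 and WT in 9. The hsfa2 mean was above the WT mean in 78 members (80.4%), against 51.1% of all features. It was above WT by at least 0.8 in 14 members, and QK was above WT by as much in 13. The shares over all features at 0.8 were not counted. The rule used these means, so the counts describe the members chosen and were not tested.

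Heated QK and hsfa2 arrays played no part in the choice of members, and heated A2QK arrays set only an upper limit. They therefore show how far the members' elevation was also found after heat. Against QK heat, 44 members were raised in A2QK heat (45.4%), against 6.2% of all features, and 1 was lowered, against 6.12% of all features. Against hsfa2 heat, 39 members were raised (40.2%), against 7.58% of all features, and none was lowered by limma's adjusted p, against 5.82% of all features. At an unadjusted p under 0.05, 1 member was lowered against hsfa2 heat, against 13.9% of all features. Both comparisons share the A2QK heat arrays. In all, 35 members were raised against both lines (36.1%), against 2.93% of all features, 13 against 1 of them and 49 against neither. Among the 56 named members 17 were raised against both.

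The median member differed by 0.88 from QK heat and by 0.88 from hsfa2 heat, while the median feature differed by -0.02 and by -0.06. The difference from QK heat was positive in 82 members (84.5%), against 47.4% of all features. That from hsfa2 heat was positive in 88 (90.7%), against 44.4%. Both A2QK heat arrays lay above all 4 QK and hsfa2 heat arrays in 66 members, an order found in 10.8% of all features. The 0.8 margin over both lines was met after heat by 42 members (43.3%), against 2.97% of all features.

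**Figure D2:**
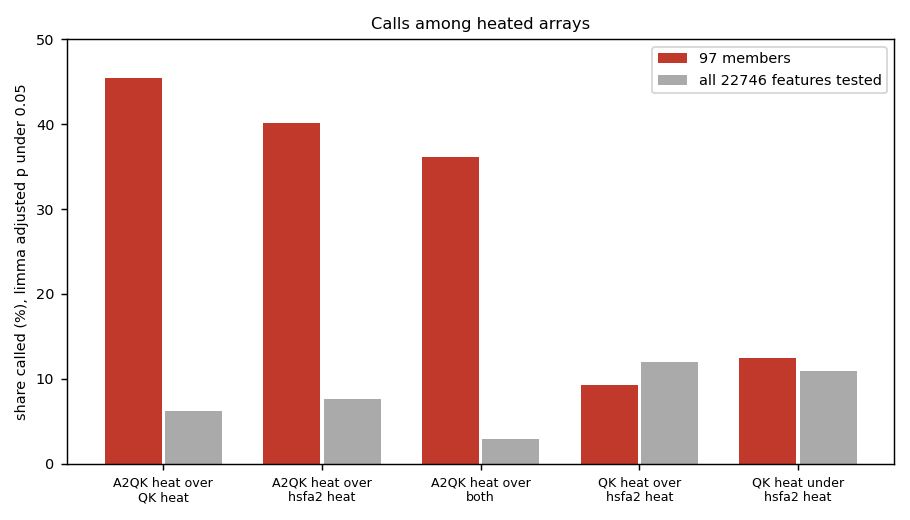
Share of features called in each comparison of heated arrays (percent, limma adjusted p under 0.05) for the 97 members and for all 22746 features tested. The members' bars for A2QK heat over QK heat, over hsfa2 heat and over both stand at 45.4%, 40.2% and 36.1%, and those for QK heat against hsfa2 heat stand near the bars of all features.

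Neither QK nor hsfa2 carries the transgene. Between QK heat and hsfa2 heat, where no array entered the rule, 9 members were raised in QK (9.28%), against 12% of all features, and 12 were lowered (12.4%), against 10.9% of all features. Those shares lie near the background with all arrays as deposited. The median difference was 0.02 in the members and -0.03 over all features. With equal array medians, 3 members were raised, and raised calls over all features went from 2724 to 1817. In that fit 19 members were lowered, and lowered calls over all features went from 2478 to 5077. Leaving out any 1 QK heat or hsfa2 heat array reduced both member counts and both counts over all features. Such a fit has 1 array in a group, so its counts are not compared with the background. Among the 66 features set aside by a heat limit, 48 (72.7%) were lowered in QK heat against hsfa2 heat, against 10.9% of all features. Of those 66 features, 64 were past the WT limit and 41 past the A2QK limit, so they were chosen for a rise with heat. Calls in A2QK heat would draw on the values that set 41 of them aside and are not counted here.

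**Figure D3:**
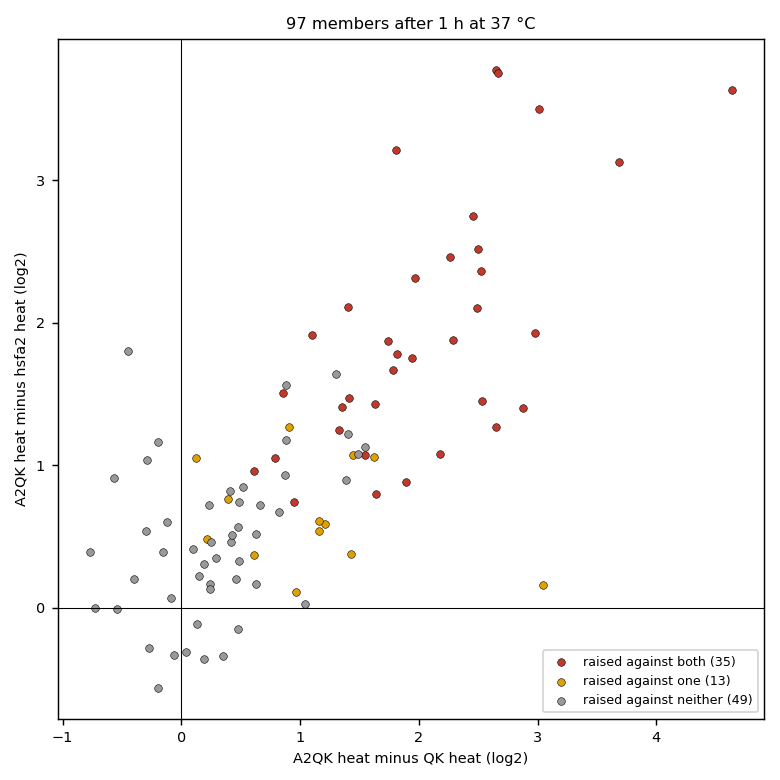
Difference of the A2QK heat mean from the QK heat mean (horizontal, log2) and from the hsfa2 heat mean (vertical, log2) for each of the 97 members, with colours for the 35 raised against both lines, the 13 raised against 1 and the 49 raised against neither. Both axes share the A2QK heat arrays, so their joint spread is not read as a relation; most points lie right of and above 0.

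Among the named members raised against both lines after heat, UGT71C2 stood furthest above the higher of the QK and hsfa2 means. It had 7.74 and 7.25 in A2QK heat, 5.02 and 4.64 in QK heat, 3.61 and 3.89 in hsfa2 heat, and 4.87 and 4.76 in WT heat. The difference was 2.67 ± 0.25 from QK heat (log2 ± SE, limma adjusted p = 3.23e-05) and 3.75 ± 0.25 from hsfa2 heat (adjusted p = 3.81e-06). Its A2QK level after heat was also 1.62 above that at 22 °C, the largest heat change in A2QK of a named member. The protease gene AT1G62290 had 10.41 and 10.45 in A2QK heat, 7.97 and 7.57 in QK heat, 6.57 and 6.75 in hsfa2 heat, and 7.23 and 6.26 in WT heat. It differed by 2.65 ± 0.38 from QK heat (limma adjusted p = 0.000847) and by 3.77 ± 0.38 from hsfa2 heat (adjusted p = 8.62e-05). Its A2QK level was the same with and without heat to within 0.08.

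The pseudogene AT3G21020 had 5.86 and 5.88 in A2QK heat, 3.48 and 3.27 in QK heat, 3.70 and 3.01 in hsfa2 heat, and 3.58 and 3.50 in WT heat. At 22 °C its A2QK arrays, at 4.96 and 5.24, had stood close to 1 of the QK arrays, 4.76 and 3.31. After heat it differed by 2.50 ± 0.38 from QK (limma adjusted p = 0.00117) and by 2.52 ± 0.38 from hsfa2 (adjusted p = 0.00119). The heated A2QK arrays lay above all other heated arrays, and those of the other 3 lines overlapped. AT1G75900 had 7.77 and 7.88 in A2QK heat, 5.19 and 5.40 in QK heat, 6.66 and 6.09 in hsfa2 heat, and 4.83 and 4.80 in WT heat, with differences of 2.53 ± 0.19 from QK heat and 1.45 ± 0.19 from hsfa2 heat (limma adjusted p = 7.93e-06 and 0.000567). For this lipase gene the hsfa2 arrays again lay between A2QK and QK.

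AT5G15070, an inositol pyrophosphate kinase gene, had 6.22 and 6.34 in A2QK heat, 4.43 and 4.18 in QK heat, 3.31 and 4.63 in hsfa2 heat, and 3.65 and 3.86 in WT heat. Differences were 1.97 ± 0.39 from QK heat and 2.31 ± 0.39 from hsfa2 heat (limma adjusted p = 0.00652 and 0.00271). Without the replicate 2 array of A2QK heat the first had an adjusted p of 0.0553. The methyltransferase family gene AT5G40830 had 6.95 and 6.53 in A2QK heat, 4.45 and 4.46 in QK heat, 4.86 and 4.87 in hsfa2 heat, and 5.30 and 4.76 in WT heat. It differed by 2.29 ± 0.22 from QK heat (limma adjusted p = 4.82e-05) and by 1.88 ± 0.22 from hsfa2 heat (adjusted p = 0.000246). Its heat change was 0.01 in A2QK and -1.29 in QK.

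AT4G17470, the member with the widest named margin at 22 °C, kept a high A2QK level after heat, but QK then varied. It had 7.95 and 7.92 in A2QK heat, 7.10 and 5.14 in QK heat, 4.75 and 4.70 in hsfa2 heat, and 3.07 and 3.21 in WT heat. It differed by 1.81 ± 0.48 from QK heat (limma adjusted p = 0.03) and by 3.21 ± 0.48 from hsfa2 heat (adjusted p = 0.00122). The difference from QK rests on 1 array: without replicate 2 of QK heat it was 0.83 with an adjusted p of 0.151. The adjusted p against QK heat was 0.131 and 0.138 without replicates 1 and 2 of A2QK heat.

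The remaining members of the 10 named ones furthest above both lines were AT5G35660, AT1G51380 and TAC1. AT5G35660 had 6.11 and 6.08 in A2QK heat, 4.03 and 4.52 in QK heat, 4.20 and 4.43 in hsfa2 heat, and 4.44 and 4.22 in WT heat, with differences of 1.82 ± 0.25 and 1.78 ± 0.25 from the QK and hsfa2 means. The RNA helicase AT1G51380 had 5.52 and 5.00 in A2QK heat, 3.34 and 3.30 in QK heat, 3.48 and 3.55 in hsfa2 heat, and 2.90 and 3.30 in WT heat, with differences of 1.94 ± 0.23 and 1.75 ± 0.23. TAC1, at the very edge of the rule, had 5.10 and 5.13 in A2QK heat, 3.25 and 3.41 in QK heat, 3.37 and 3.51 in hsfa2 heat, and 3.11 and 3.20 in WT heat, with differences of 1.78 ± 0.15 and 1.67 ± 0.15. The heated A2QK arrays of all 3 lay clear of the other heated arrays.

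**Figure D4:**
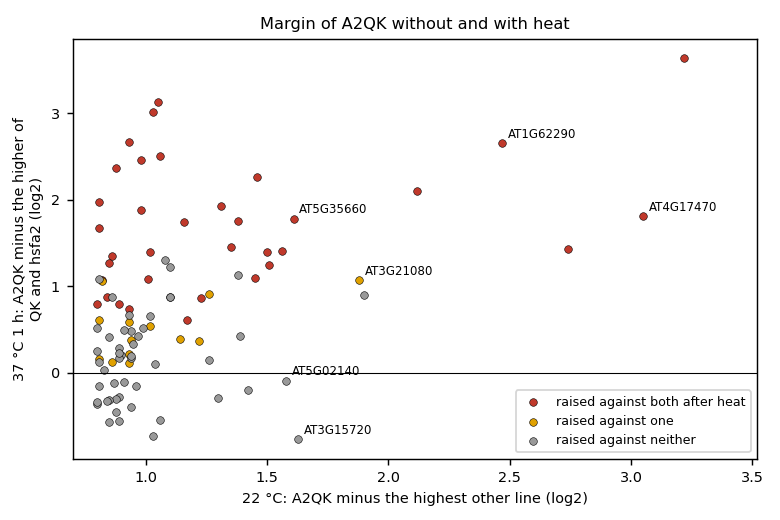
Margin of A2QK over the highest other line at 22 °C (horizontal, log2) against its margin over the higher of QK and hsfa2 after heat (vertical, log2) for the 97 members, with colours for the calls after heat. The horizontal values are at least 0.80 by the rule. The vertical ones are above 0 in 77 of the 97 members, and that share was not counted over all features. They are 2.65 for AT1G62290 and at most 3.63, for an unlisted feature. AT3G15720 and AT5G02140 are examples of members below 0.

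Other members were not raised against either line after heat. AT5G02140 had 3.07 and 3.08 in A2QK heat, 3.10 and 3.24 in QK heat, 2.94 and 3.08 in hsfa2 heat, and 2.94 and 2.86 in WT heat. Its heat change was -3.28 in A2QK, the lowest of any member there, and -1.61 in QK. The heated A2QK arrays lay at the upper end of the hsfa2 heat range, just under the QK and just over the WT heat arrays, with differences of -0.09 ± 0.24 from QK heat and 0.07 ± 0.24 from hsfa2 heat. AT3G15720 had 4.24 and 4.36 in A2QK heat, 4.75 and 5.38 in QK heat, 4.02 and 3.80 in hsfa2 heat, and 3.85 and 3.08 in WT heat, with a heat change of -2.95 in A2QK. The pseudouridine synthase gene AT1G76120 had 2.88 and 2.56 in A2QK heat, against 4.60 and 4.71 in A2QK at 22 °C. AT4G09500 (3.26 and 2.96 in A2QK heat, 4.53 and 4.80 in A2QK at 22 °C) and CML42 (6.21 and 6.19 in A2QK heat, 7.54 and 7.79 in A2QK at 22 °C) were likewise lower after heat. None of these 5 genes passed the test against either line.

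AT5G32460, of the B3-domain transcription factors, was the 1 member lowered in A2QK heat against QK heat. It had 3.12 and 2.75 in A2QK heat, 3.74 and 3.60 in QK heat, 2.77 and 3.09 in hsfa2 heat, and 2.78 and 2.94 in WT heat. The difference from QK heat was -0.73 ± 0.20 (limma adjusted p = 0.0312), and it did not pass once arrays had equal medians or without replicate 2 of A2QK heat or either QK heat replicate. AT3G02910 was the member with the highest heat change in QK, 1.57, with 8.84 and 9.52 in QK heat, against 7.30 and 7.92 in QK at 22 °C. Its A2QK arrays were at 8.70 and 8.51 after heat and at 9.46 and 9.35 at 22 °C. AT5G38020 was likewise as high in QK heat, with 7.03 and 7.24, as in A2QK heat, with 6.95 and 6.91. It had 5.77 and 5.77 in hsfa2 heat, and 4.50 and 5.74 in WT heat.

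In 13 members A2QK heat was raised against 1 line and not the other. AT1G73600 had 8.27 and 8.21 in A2QK heat, 5.17 and 5.21 in QK heat, 7.99 and 8.18 in hsfa2 heat, and 6.24 and 6.76 in WT heat. It was 3.05 ± 0.28 above QK heat (limma adjusted p = 3.01e-05), while its difference from hsfa2 heat was 0.16 ± 0.28 (adjusted p = 0.77, 95% interval -0.45 to 0.77). The heated A2QK and hsfa2 arrays were thus close to each other, and QK was far below both. JAL22 was raised against QK heat by 1.43 ± 0.30 (limma adjusted p = 0.00961) and stood at 0.38 ± 0.30 over hsfa2 heat (adjusted p = 0.469). ATJ1 was raised against hsfa2 heat, by 0.48 ± 0.14 (limma adjusted p = 0.0479), with 6.46 and 6.45 in A2QK heat, 6.21 and 6.28 in QK heat, 6.07 and 5.89 in hsfa2 heat, and 5.66 and 5.53 in WT heat. The 8 heated arrays of this co-chaperone ran from 5.53 to 6.46. Its heat change was -0.19 in A2QK, 0.52 in QK, 0.59 in hsfa2 and 0.34 in WT.

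By function, 4 of 12 secretory and cell wall members, 2 of 9 in specialised metabolism and 4 of 10 in primary metabolism and transport were raised against both lines after heat. Of all features, 2.93% were. The groups are small, were drawn up after the members were known and were not compared with each other. The count was 2 of 6 for DNA, RNA and translation, 3 of 10 for transcription and signalling and 2 of 9 with no role given. Besides those above, they included TBL34 (AT2G38320), of a family that acetylates wall polysaccharides, with 0.79 ± 0.23 over QK heat and 1.05 ± 0.23 over hsfa2 heat. SDH1-2 (AT2G18450), a flavoprotein of succinate dehydrogenase, stood 1.55 ± 0.28 over QK heat and 1.07 ± 0.28 over hsfa2 heat. The MYB-like factor AT1G49560 stood 2.65 ± 0.24 over QK heat and 1.27 ± 0.24 over hsfa2 heat. Of the 2 dirigent genes, AT4G11190 passed against neither line and AT4G38700 against hsfa2 heat only.

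The median heat change of the members was -0.58 in A2QK (range -3.28 to 1.8), -0.03 in QK (-1.61 to 1.57), -0.07 in hsfa2 (-1.73 to 0.90) and -0.06 in WT (-1.37 to 0.49). The upper ends in A2QK and WT are set by the rule. Over all features the median heat change was -0.01 in A2QK, 0.03 in QK, 0.03 in hsfa2 and 0.01 in WT. Of the 97 members, 52 were at least 0.5 lower in A2QK after heat, 26 were within 0.5 and 19 were at least 0.5 higher. The shares of all features in these ranges were not counted. The members were selected for high A2QK values at 22 °C, and how much of their lower A2QK level after heat comes from that choice was not tested. The median heat change in A2QK was 0.22 in the 35 members raised against both lines, -0.50 in the 13 raised against 1 and -0.93 in the 49 raised against neither. The A2QK heat arrays enter both this change and the calls, so the order of these medians follows from the grouping. The median margin at 22 °C was 1.06, 0.93 and 0.93 in the same groups.

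**Figure D5:**
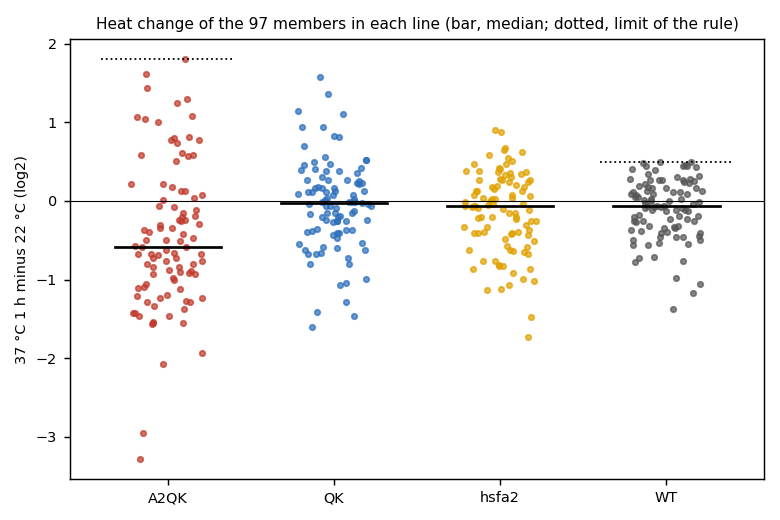
Change with heat (1 h at 37 °C minus 22 °C, log2) of each of the 97 members in A2QK, QK, hsfa2 and WT; bars are medians and dotted lines the upper limits set by the rule. The A2QK points spread from -3.28 to 1.8 with a median of -0.58, and the other 3 medians lie close to 0.

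A few members sat close together on the chromosomes (TAIR10.1). AT1G75880 (chromosome 1, 28490443 to 28492578) and AT1G75900 (28498821 to 28501254) are 6.2 kb apart, and AT1G75890 between them, with a margin of 0.26, was no member. AT3G21020 and AT3G21080 on chromosome 3 are 18.7 kb apart, with margins of 0.13 and -0.21 in AT3G21060 and AT3G21040 between them. CML42 and the berberine bridge enzyme-like AT4G20820 on chromosome 4 are 16.0 kb apart, with -0.28 in AT4G20790 and -0.33 in AT4G20800. The genes measured between the members of a pair thus had margins under 0.8, and they were not tested. Over the genome, chromosome 1 held 19 of the 56 named members (33.9%, against 25.8% of all named features) and chromosome 5 held 8 (14.3%, against 22.5%).

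None of the 56 named members was on any of 14 gene lists, of which 11 had a measured gene. Those 11 lists held 45 measured genes, out of 13436 features matched to a gene, so the lack of overlap says little about the members. For chaperones the rule itself also sets it, since a gene that heat raised by at least 0.5 in WT could not be a member. AT1G53540 averaged 11.23 in A2QK at 22 °C, against 3.10 in QK, 3.07 in hsfa2 and 2.95 in WT. With 12.94 in WT heat, it was kept out by that limit. The members without a gene name could not be looked up. Those lists show what else differed between A2QK and QK at 22 °C, the contrast that the rule also uses. There, limma called 68 of the 97 members raised. The rule required a difference of at least 0.8 in this contrast, so that count describes the choice and is no test. Over all features, 5.17% were raised. Of 18 measured chaperones and HSF targets, out of 37, 9 were raised and 0 lowered by limma (11 and 0 at an unadjusted p under 0.05), with a median difference of 2.22. The largest were AT1G53540, a small heat shock protein gene, with 8.13 ± 1.26, ATHSP22.0 (AT4G10250), a small heat shock protein, with 7.31 ± 0.95 and AT2G29500, a small heat shock protein gene, with 5.95 ± 0.80. The smallest were Hsp70-2 (AT5G02490) with -0.04 ± 0.39, Hop1 (AT1G12270) with 0.11 ± 0.26 and AT1G71000 with 0.14 ± 0.45. After heat, 15 of the 18 were raised in A2QK against QK, where 6.2% of all features were. Against hsfa2, 3 were lowered and 0 raised by limma, where 5.82% of all features were lowered and 7.58% raised. At an unadjusted p under 0.05, 5 of the 18 were lowered and 1 raised against hsfa2. The median difference of these 18 from hsfa2 heat was -0.51, against 0.88 for the 97 members.

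Other stress lists held few measured genes. At 22 °C, the ER folding list had 1 of 4 lowered in A2QK against QK, BZIP60 (AT1G42990) with -0.97 ± 0.23, against 3.92% of all features lowered. The glucosinolate list had 1 of 2 raised, BCAT4 (AT3G19710) with 2.12 ± 0.47, and the list of drought, cold and abscisic acid genes 1 of 4, COR15A (AT2G42540) with 2.25 ± 0.40. COR15A averaged 6.45 in A2QK, 4.20 in QK, 10.75 in hsfa2 and 4.23 in WT, so it was no member. None of the 17 measured genes of the lists for salicylic acid and defence (3), jasmonate (2), flavonoids (3), oxidative stress (1), iron, copper and phosphate (3), the clock (1) and root markers (4) was called by limma. At an unadjusted p under 0.05, 3 of the 17 were lowered and 0 raised. After heat, 1 root marker, AT1G34510, was lowered in A2QK against QK and 1 was raised against hsfa2. The part of root tissue in the members' values was not tested.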

How the data were processed

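Biotin-labelled RNA from whole seedlings was measured on 16 Affymetrix arrays in 8 groups of 2. The authors deposited log2 values from RMA, per the submitters' processing notes. Its version is not given in the sources used, nor is it stated whether all arrays were normalized in 1 run. RMA compresses dim features and reduces changes shared by most transcripts. Of 22810 features, 64 controls were left out and 22746 tested. GEO's platform annotation named a single gene for 13513, several for 503 and none for 8730, and 13436 were matched to RefSeq genes (TAIR10.1).

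The fit of each feature used lmFit and eBayes of limma 3.58.1 (R 4.3.3) with 8 group means over 16 arrays, 8 residual and 3.37 prior degrees of freedom. It pools the spread of all groups, so an SE is not specific to the lines compared. The members' median SD of 2 arrays was 0.12 at 22 °C and 0.11 after heat in A2QK. That SD was 0.3 and 0.21 in QK, 0.18 and 0.22 in hsfa2, and 0.29 and 0.22 in WT. Adjusted p-values are two-sided, with Benjamini-Hochberg adjustment over all 22746 features, and calls use 0.05. The code was tested on simulated data. Figures used Python 3.11.15 and matplotlib 3.10.9. Precision is limited by the number of arrays, which have no read depth. Nothing in the labels says that a group's arrays are separate cultures. The p-values therefore rest on the spread between these samples alone, and that spread may be technical.

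The members, gene lists, tests and groups by function were chosen with earlier results of these data known. Families of loci that RefSeq leaves unnamed are background knowledge. The text names the 12 named members with the widest margin at 22 °C, the 10 highest above both heated lines among those raised against both, the 4 nearest the limit, the extremes of heat change in A2QK, members that share a family or lie within 50 kb, the 3 features just outside, and the 3 largest and 3 smallest differences among chaperones. A few further members were named after their values were seen: AT1G58025, AT1G73600, AT1G76120, AT3G02910, AT5G32460, ATJ1, SDH1-2, TBL34, AT1G49560 and the unlisted feature with the widest margin. Alternatives were other margins, rescaled arrays, a filter on dim features, one temperature only, a replicate block, a trended fit and leaving out each array.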

Additional observations from a re-analysis of the deposited data

How the results depend on the processing

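The number of members by the rule depended on its settings: 97 became 252 with a margin of 0.6, 43 with a margin of 1.0, 163 without the limits on heat, 58 with a group mean of at least 6 and 50 with equal array medians. Leaving out 1 array gave 83 to 124. Of members raised in A2QK heat, 44 against QK heat became 33 to 46, 39 against hsfa2 heat became 28 to 44, and 35 against both became 24 to 39 without 1 array, and 23 against both with a group mean of at least 6, where 58 members were tested. The 1 member lowered against QK heat became 0 with one temperature or equal medians and 2 with a replicate block within WT and QK. That member, AT5G32460, was not in the filtered fit, since its highest group mean was 4.32. The 0 lowered against hsfa2 heat became 1 with equal medians, quantile normalization again or the block within WT and QK, and stayed at 0 without any 1 array. For QK heat against hsfa2 heat, the 9 raised became 3 with equal medians, 19 with the block within WT and QK and 3 to 11 without 1 array, and the 12 lowered became 19 with equal medians and 6 to 12 without 1 array. For A2QK against QK at 22 °C, the 68 raised became 39 with the filter and 39 to 73 without 1 array. Over all features, raised calls in A2QK heat ran from 840 to 1520 against QK heat and from 849 to 1865 against hsfa2 heat without 1 array, lowest without an A2QK heat array. For QK heat against hsfa2 heat, 2724 of all features were raised and 2478 lowered, which became 1817 and 5077 with equal medians. With the block within WT and QK they became 4195 and 3390. The cause of these shifts was not tested. With the replicate number as a block in all groups, the counts were 48 and 44 raised in A2QK heat against QK and hsfa2, 38 against both, 12 raised and 14 lowered in QK heat against hsfa2 heat, and 76 raised at 22 °C. Same-numbered WT and QK arrays deviated together (r of 0.535 to 0.795 in 6 pairs of groups), the other 22 pairs did not (-0.0221 to 0.152), and the block within WT and QK was chosen after seeing this. Of 454 alternatives for the 20 differences of the 10 named members furthest above both heated lines, 449 gave the same call and 5 lost it, 4 of them for AT4G17470 against QK heat (0.83 to 1.83, adjusted p up to 0.151) and 1 for AT5G15070. Signal near the low end of the scale limits the dim members.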
